A study of Rattus norvegicus with 12 samples.

Results

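In the hearts of obese rats given nicotinamide (NAM), 8 genes were followed that had been selected on their lower transcript levels than in untreated obese hearts: Cope, Mfap4, Igfbp4, Arpc1b, Tmod2, Atat1, Bcl7c and Akip1. They were taken by symbol from the deposited expression table, which holds 17602 genes, of which 10526 passed a filter on low values (at least 1 TPM in at least 4 samples). All 8 members were found and all 8 passed that filter. TPM is the length-corrected share of a sample's transcripts, scaled to the same total in every sample. The samples were cardiac muscle of ZSF1 rats in 3 groups of 4. Lean rats served as controls. Obese rats, whose obesity the labels call diet-induced, received no NAM. A further group of obese rats with the same label drank water with 24 mM NAM between week 8 and week 20 of age. Obese ZSF1 rats are known to carry defective leptin receptor alleles from both parental lines and to be hypertensive. NAM is a form of vitamin B3 from which cells rebuild NAD+, and the study asked how it acts on hearts prone to failure with preserved ejection fraction.

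The 8 genes belong to different cellular systems. Cope encodes the epsilon subunit of coatomer, the coat of COPI vesicles that carry proteins back from the Golgi to the endoplasmic reticulum. Mfap4 encodes a secreted glycoprotein that binds elastin and fibrillin microfibrils, and Igfbp4 encodes a secreted protein that binds insulin-like growth factors and limits their access to the receptor. Arpc1b is a subunit of the Arp2/3 complex, which starts branched actin filaments, and Tmod2 caps the slow-growing (pointed) ends of actin filaments. Atat1 is the enzyme that acetylates alpha-tubulin inside microtubules, a mark of long-lived microtubules that Hdac6 removes. Bcl7c is a subunit of BAF (SWI/SNF) complexes, which move nucleosomes, and Akip1 binds the catalytic subunit of protein kinase A.

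Sequencing depth cannot be read from TPM, so no counting interval can be given and low values carry a counting error of unknown size. The labels name no batch, and they do not state that the 4 samples of a group came from separate animals, so p-values measure the spread between these samples. Mitochondrially encoded transcripts made up 66.2% to 70.4% of TPM in the lean group, 74.6% to 75.5% in obese samples and 69.9% to 73.8% with NAM. On the log2 scale the median of all kept genes changed with them, by -0.20 in obese against lean and by 0.25 in NAM-treated against obese hearts. Each comparison is therefore given on the deposited scale and on median-of-ratios scaled TPM (rescaled values), for which a sample is divided by its median ratio to a geometric-mean reference. This brings the median gene to 0.00 in obese against lean and to -0.01 in NAM-treated against obese hearts. In these whole-tissue samples fewer cells of a type and less RNA per cell cannot be told apart.

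Promoter sequence was found for 7 of the 8 members in the RefSeq tables for rat build GRCr8. The 250 bases before the annotated start are printed for 4 of them, a pair that was higher in obese than in lean hearts (Cope and Igfbp4) and a pair that lay below lean hearts with NAM (Bcl7c and Akip1). Capitals mark matches, on either strand, to the CRE (TGACGTCA, the site of CREB-type factors), the E-box (CACGTG), the GC box (GGGCGG), the CCAAT box (CCAAT) and the TATA box (TATAAA). The motifs were picked after these sequences had been seen.
Cope: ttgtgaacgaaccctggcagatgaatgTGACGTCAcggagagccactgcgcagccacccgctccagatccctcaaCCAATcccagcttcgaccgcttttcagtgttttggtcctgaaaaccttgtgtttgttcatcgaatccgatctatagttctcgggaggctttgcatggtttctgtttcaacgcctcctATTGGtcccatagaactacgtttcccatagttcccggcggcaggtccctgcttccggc
Igfbp4: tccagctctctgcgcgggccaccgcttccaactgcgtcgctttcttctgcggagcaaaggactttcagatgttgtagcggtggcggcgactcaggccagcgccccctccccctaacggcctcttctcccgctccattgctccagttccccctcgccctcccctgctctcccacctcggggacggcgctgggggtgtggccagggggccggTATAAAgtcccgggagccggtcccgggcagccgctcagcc
Bcl7c: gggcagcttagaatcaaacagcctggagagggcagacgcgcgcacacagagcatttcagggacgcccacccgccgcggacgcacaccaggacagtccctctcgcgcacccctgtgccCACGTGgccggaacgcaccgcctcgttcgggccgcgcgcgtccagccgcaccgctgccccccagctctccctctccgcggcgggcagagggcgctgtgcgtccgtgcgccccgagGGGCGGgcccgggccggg
Akip1: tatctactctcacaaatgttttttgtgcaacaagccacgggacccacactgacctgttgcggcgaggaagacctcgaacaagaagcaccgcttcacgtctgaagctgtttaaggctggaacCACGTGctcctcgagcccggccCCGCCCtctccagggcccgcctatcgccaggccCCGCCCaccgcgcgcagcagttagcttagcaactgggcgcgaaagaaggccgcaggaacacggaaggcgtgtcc
These windows lie on chr16:19159038-19159287 (minus strand), chr10:84491221-84491470 (plus), chr1:191754642-191754891 (minus) and chr1:173169381-173169630 (plus). The Cope window holds a full CRE at position -223 from the start, a motif found in 1.70% of all 27457 promoters of this length and in 2.87% of the 7674 promoters of kept genes, and CCAAT boxes at -175 and -58. Igfbp4 has a TATA box at -40, found in 13.1% of all promoters and 6.55% of those of kept genes. Bcl7c and Akip1 each hold the E-box, at -133 and -129, which 5.79% of all promoters and 8.24% of those of kept genes hold. They also have GC boxes (32.4% of all promoters and 60.3% of those of kept genes), at -18 in Bcl7c and at -107 and -74 in Akip1. Arpc1b and Tmod2, whose NAM-treated samples also lay below all lean samples, have no E-box in their windows. The GC content of the 7 windows ran from 46% in Tmod2 to 74.8% in Bcl7c, beside a median of 60.4% over kept genes, and no single motif of those searched was present in all 7. A match describes the letters and does not show that a factor binds there.

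In the contrast that chose them, all 8 genes had a lower mean TPM in NAM-treated than in untreated obese hearts. The NAM mean was 0.293 times the obese mean for Atat1, 0.387 for Bcl7c, 0.437 for Cope, 0.599 for Tmod2, 0.656 for Arpc1b, 0.695 for Mfap4, 0.736 for Akip1 and 0.878 for Igfbp4. The median change of the 8 was -0.51 on the log2(TPM + 1) scale and -0.80 after rescaling. Ranked from the largest fall among 10526 genes on the deposited scale, Atat1 was at place 30, Cope at 52 and Bcl7c at 89, while Igfbp4 was at 694. Every NAM sample lay below every obese sample for 6 of 8 genes as deposited and for 8 of 8 after rescaling, beside 0.333% and 4.30% of all genes. By the limma test at an adjusted p of 0.05, 0.466% of genes were called lower and 28.8% higher in this contrast as deposited, and 0.513% and 0.200% after rescaling. These values describe the choice of the genes and carry no test.

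**Figure D1:**
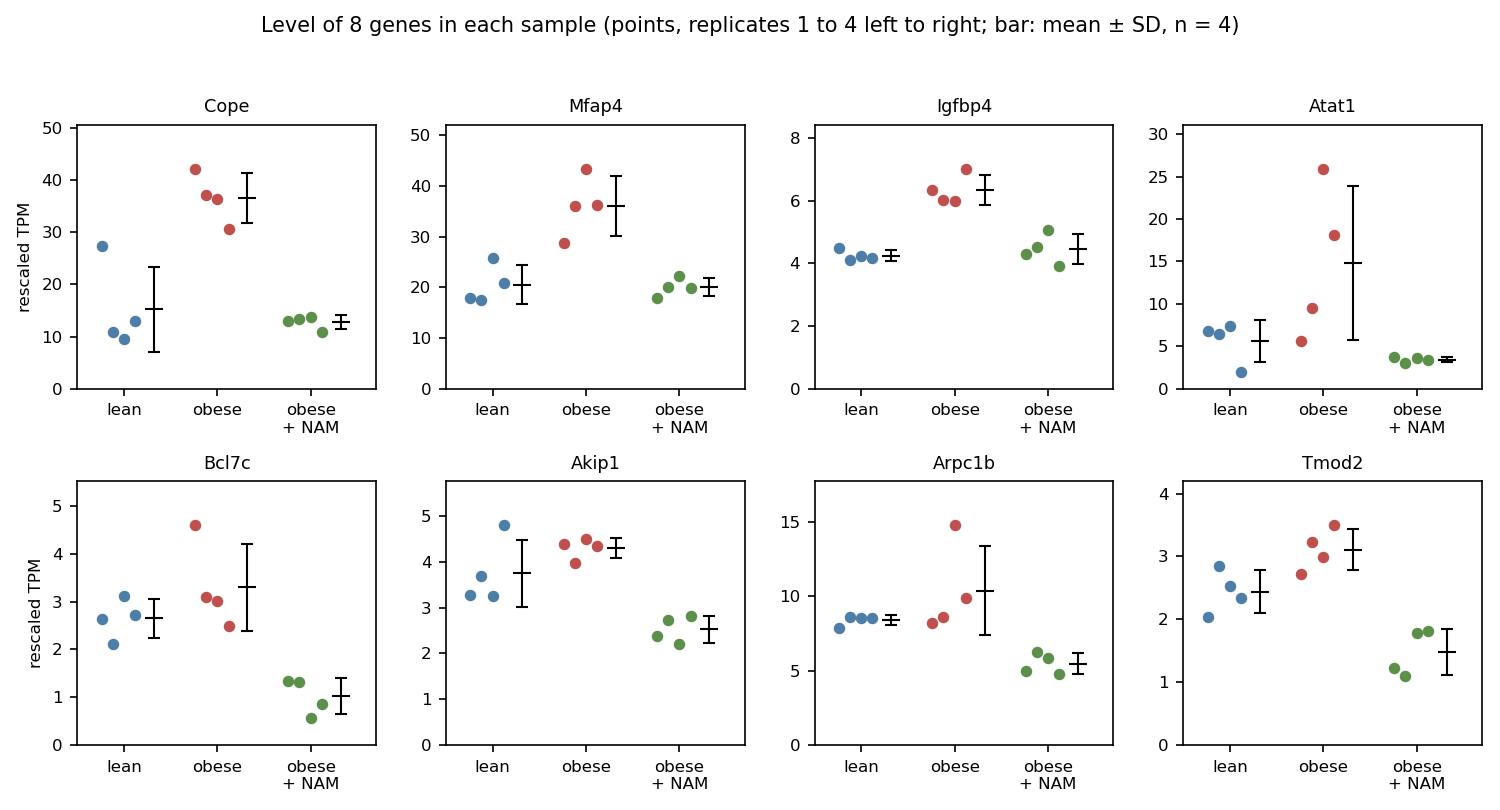
Level of each of the 8 genes in rescaled TPM (vertical axes, from 0) in the 4 lean, 4 obese and 4 NAM-treated samples (points, replicates 1 to 4 from left to right), with the mean and SD as a bar. In the upper row Cope, Mfap4 and Igfbp4 are high in all 4 obese samples and Atat1 in some of them. In the lower row all NAM-treated samples lie under all lean samples.

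Where the level of a gene stood relative to lean hearts separated the members into patterns. Cope, Mfap4 and Igfbp4 were higher in obese than in lean hearts and near the lean level with NAM. Atat1 also had its highest mean in obese hearts, with a wide spread, and its NAM-treated mean was 0.640 times the lean mean. Bcl7c, Akip1, Arpc1b and Tmod2 lay below lean hearts with NAM. As deposited they differed little between obese and lean hearts, by -0.04 to 0.07 on the log2 scale. After rescaling they were 0.17 to 0.26 higher in obese hearts, with none of them called, so the patterns are less distinct on that scale. Both comparisons with lean hearts share their obese or NAM-treated samples with the contrast that chose the genes, which favours high obese and low NAM values, so their direction is not independent of that choice. In obese against lean hearts 2 of 8 members were called higher as deposited (Cope and Mfap4) and 3 of 8 after rescaling (with Igfbp4), where 0.352% and 0.589% of all genes were called higher. No member was called lower by limma (0 of 8, also 0 at an unadjusted p of 0.05, on both scales), beside 16.5% of genes as deposited and 0.751% after rescaling. In NAM-treated against lean hearts 1 of 8 was called lower on both scales (Bcl7c), where 0.969% of genes were called lower as deposited and 1.59% after rescaling.

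Cope (ENSRNOG00000020178.7), the coatomer subunit, measured 29.9, 11.3, 9.85 and 13.6 TPM in lean replicates 1 to 4, 35.4, 34.5, 31.8 and 26.8 TPM in obese replicates, and 15.2, 13.4, 15.5 and 12.2 TPM in NAM-treated replicates. Lean replicate 1 lay inside the obese range, and the other 3 lean samples were far below every obese sample, like the NAM-treated ones. Its mean was 16.2 ± 9.28 TPM for lean, 32.1 ± 3.88 TPM for obese and 14.0 ± 1.57 TPM for NAM-treated hearts (SD, n = 4 each). Cope was 1.07 higher in obese than in lean hearts on the log2 scale (SE 0.27, limma adjusted p = 0.0199), and 1.32 higher after rescaling (SE 0.25, adjusted p = 0.0355). The call was lost without obese replicate 1 (adjusted p = 0.0528) or obese replicate 3 (0.0502), and in a fit to the 8 lean and obese samples alone (0.0557). After rescaling it held without lean replicate 1 or NAM-treated replicate 3 and was lost without any other sample, with adjusted p up to 0.0905. Lean replicate 1 also had the lowest mitochondrial share of all samples, 66.2%, and without it the difference was 1.40 as deposited (adjusted p = 0.000644). NAM-treated and lean hearts differed by -0.07 (SE 0.27, adjusted p = 0.930), and by 0.26 without lean replicate 1 (adjusted p = 0.389).

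Mfap4 (ENSRNOG00000002382.7), the microfibril-associated glycoprotein, was present at 19.7, 18.0, 26.9 and 21.8 TPM in lean, 24.1, 33.4, 38.0 and 31.7 TPM in obese and 20.9, 20.0, 25.1 and 22.4 TPM in NAM-treated replicates. Obese replicate 1 lay within the lean range as deposited, and after rescaling all 4 obese samples were above all lean and all NAM-treated ones. Mfap4 was 0.53 higher in obese than in lean hearts on the log2 scale (SE 0.14, adjusted p = 0.0241), and 0.78 higher after rescaling (SE 0.14, adjusted p = 0.0186). The deposited call was lost without lean replicate 1, lean replicate 2, obese replicate 3 or obese replicate 4 (adjusted p = 0.0677, 0.0630, 0.0697 and 0.0537). The rescaled call was lost without lean replicate 1, lean replicate 2 or obese replicate 4 (0.0563, 0.0577 and 0.0522). With NAM the mean was 22.1 ± 2.20 TPM beside 21.6 ± 3.87 TPM in lean hearts (SD, n = 4), a log2 difference of 0.04 (SE 0.14, adjusted p = 0.916) that was -0.02 after rescaling.

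Igfbp4 (ENSRNOG00000010635.7), the growth factor binding protein, had values of 4.93, 4.23, 4.42 and 4.36 TPM in lean, 5.33, 5.60, 5.25 and 6.14 TPM in obese and 5.02, 4.51, 5.68 and 4.399 TPM in NAM-treated replicates. It is the single member for which every obese sample exceeded every lean sample as deposited, an order that 0.627% of all genes showed. The deposited obese and NAM-treated ranges overlapped, and they no longer did after rescaling. After rescaling 3 members had all obese samples above all lean samples (Cope, Mfap4 and Igfbp4), beside 4.26% of genes. The log2 difference between obese and lean hearts was 0.26 (SE 0.09, adjusted p = 0.0721) as deposited and 0.48 (SE 0.08, adjusted p = 0.0186) after rescaling, and the rescaled call was lost without lean replicate 2, lean replicate 3 or obese replicate 4 with adjusted p up to 0.0577. NAM-treated and lean hearts differed by 0.10 (SE 0.09, adjusted p = 0.617).

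Atat1 (ENSRNOG00000000809.7), the tubulin acetyltransferase, had the widest spread of the 8 among obese samples. Its level was 7.46, 6.63, 7.70 and 2.06 TPM in lean, 4.70, 8.84, 22.7 and 15.8 TPM in obese and 4.39, 2.96, 4.06 and 3.84 TPM in NAM-treated replicates. Obese replicates 3 and 4 were far above the rest, obese replicate 1 lay among the lean samples, and lean replicate 4 was the lowest of all 12. The obese mean of 13.0 ± 7.91 TPM was 2.18 times the lean mean of 5.96 ± 2.64 TPM (SD, n = 4). That difference, 0.92 on the log2 scale (SE 0.45), did not pass the test as deposited (adjusted p = 0.177) or after rescaling (1.15, SE 0.44, adjusted p = 0.218). The NAM-treated samples were close together at 3.81 ± 0.611 TPM (SD, n = 4) and overlapped the lean range through lean replicate 4, with a log2 difference of -0.43 (SE 0.45, adjusted p = 0.675).

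Arpc1b (ENSRNOG00000000991.6), the Arp2/3 subunit, stood at 8.64, 8.88, 8.86 and 8.90 TPM in lean, 6.91, 8.01, 12.9 and 8.66 TPM in obese and 5.81, 6.23, 6.55 and 5.36 TPM in NAM-treated replicates. The lean samples were nearly equal, obese replicate 3 was high, and every NAM-treated sample lay below every lean and every obese sample. After rescaling obese and lean hearts differed by 0.24 on the log2 scale (SE 0.15, adjusted p = 0.445). As deposited they differed by 0.01 (SE 0.14, adjusted p = 0.963), and by -0.15 without obese replicate 3. With NAM the level was 0.49 below lean on that scale (a change of -0.49, SE 0.14, adjusted p = 0.108; rescaled -0.55, adjusted p = 0.0742). Without obese replicate 3 the adjusted p of that change was 0.0219 as deposited and 0.0134 after rescaling.

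Tmod2 (ENSRNOG00000010447.4), the pointed-end capping protein best known from neurons, was low throughout. It measured 2.23, 2.94, 2.63 and 2.44 TPM in lean, 2.29, 2.995, 2.62 and 3.06 TPM in obese and 1.43, 1.10, 1.99 and 2.04 TPM in NAM-treated replicates. Lean and obese samples overlapped almost completely, and all NAM-treated samples were below both groups. The log2 difference between obese and lean hearts was 0.07 (SE 0.13, adjusted p = 0.743) as deposited and 0.26 (SE 0.12, adjusted p = 0.307) after rescaling. Between NAM-treated and lean hearts it was -0.44 (SE 0.13, adjusted p = 0.122) as deposited and -0.48 (SE 0.12, adjusted p = 0.0601) after rescaling, and neither passed the test.

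Bcl7c (ENSRNOG00000018916.5), the BAF subunit, was the member called lower in NAM-treated than in lean hearts. Lean replicates had 2.88, 2.18, 3.26 and 2.85 TPM, obese replicates 3.87, 2.87, 2.63 and 2.19 TPM, and NAM-treated replicates 1.56, 1.31, 0.635 and 0.960 TPM. The lean and obese ranges overlapped, while the highest NAM-treated sample lay below the lowest of both. The NAM-treated mean of 1.12 ± 0.405 TPM was 0.401 times the lean mean of 2.79 ± 0.448 TPM (SD, n = 4). The log2(TPM + 1) change, which understates a ratio at such low levels, was -0.85 (SE 0.16, adjusted p = 0.0214) as deposited and -0.87 (SE 0.17, adjusted p = 0.0193) after rescaling. The deposited call was lost without lean replicate 1, 3 or 4 or NAM-treated replicate 3 or 4 (adjusted p = 0.0534, 0.0599, 0.0530, 0.0655 and 0.0675). The rescaled call was lost without lean replicate 1 or 3 or NAM-treated replicate 3 or 4 (0.0537, 0.0560, 0.0668 and 0.0642). Obese and lean hearts differed by 0.03 (SE 0.16, adjusted p = 0.920) as deposited and by 0.22 (SE 0.17, adjusted p = 0.557) after rescaling.

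Akip1 (ENSRNOG00000013744.5), the kinase-binding protein, was at 3.57, 3.80, 3.38 and 5.01 TPM in lean, 3.70, 3.69, 3.94 and 3.79 TPM in obese and 2.77, 2.71, 2.47 and 3.16 TPM in NAM-treated replicates. The obese samples were close together within the lean range, and the NAM-treated samples were below both groups. The obese against lean difference was -0.04 on the log2 scale (SE 0.11, adjusted p = 0.833), with the opposite sign after rescaling (0.17, adjusted p = 0.481). The NAM-treated against lean difference was -0.38 (SE 0.11, adjusted p = 0.108) as deposited and -0.42 (SE 0.11, adjusted p = 0.0649) after rescaling. Arpc1b, Tmod2, Bcl7c and Akip1 are the 4 members with all NAM-treated samples below all lean samples, on both scales, an order shown by 3.81% of genes as deposited and 6.35% after rescaling.

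**Figure D2:**
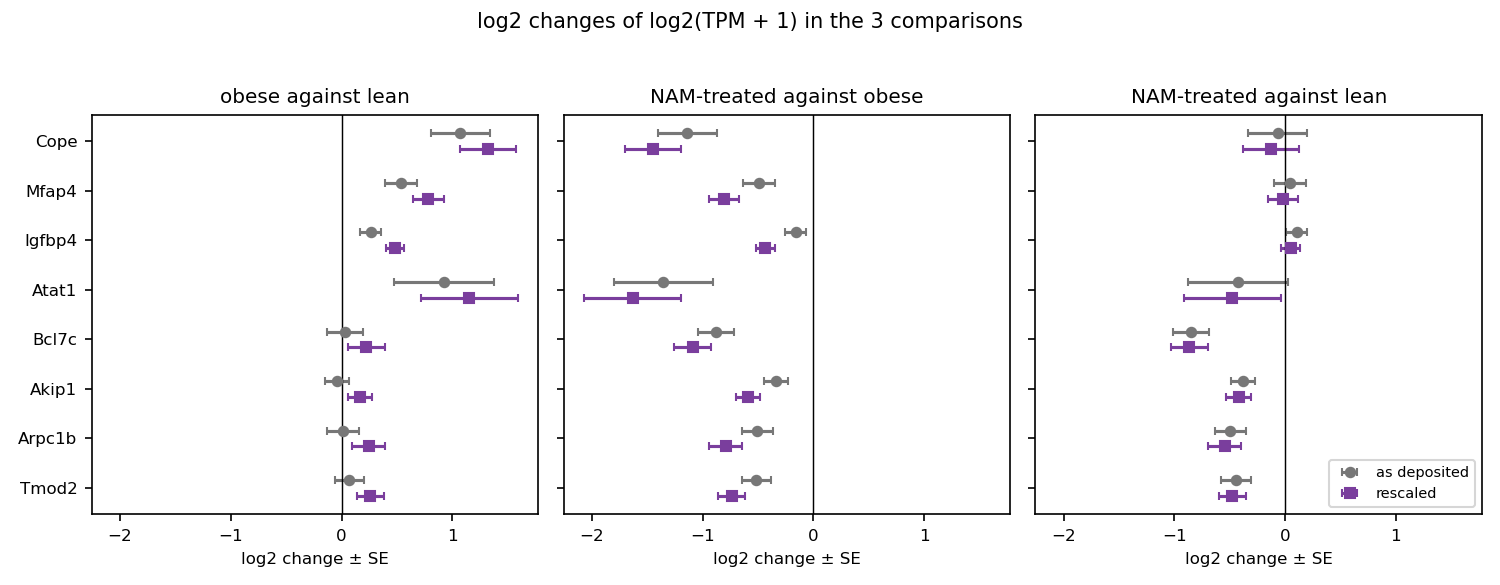
Change of log2(TPM + 1) (horizontal axes) of each gene in the 3 comparisons, as deposited (grey circles) and rescaled (violet squares), with the SE as error bars. Cope, Mfap4, Igfbp4 and Atat1 lie to the right of 0 in obese against lean hearts on both scales, and the rescaled values of all 8 genes do. Bcl7c, Akip1, Arpc1b and Tmod2 lie to the left of 0 in NAM-treated against lean hearts, from -0.38 to -0.85 as deposited.

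The other genes of the members' complexes and families had, pooled, a median change close to that of all genes in NAM-treated against obese hearts, and the elastic fibre list lay below it. Lists of 158 such genes were drawn up, 131 of which passed the filter on low values. In NAM-treated against obese hearts 47 of the 131 were called higher and 0 lower as deposited (2 lower at an unadjusted p of 0.05), with a median of 0.25 beside 0.25 over all genes. The share called higher over all genes is the 28.8% given above. After rescaling 0 were called higher and 1 lower (13 and 25 at an unadjusted p of 0.05), with a median of -0.02 beside -0.01 over all genes. The share of all genes at an unadjusted p of 0.05 was not computed, for these or later unadjusted counts. The count of 47 of 131 was 30 without NAM-treated replicate 1. The gene called lower after rescaling was Tpm3, a tropomyosin that coats actin filaments (-0.43, adjusted p = 0.0350), and its deposited change was -0.13 (adjusted p = 0.373). In obese against lean hearts 22 were called lower and 0 higher as deposited (2 higher at an unadjusted p of 0.05; 16.5% of all genes were called lower), and 0 either way after rescaling (15 higher and 14 lower at an unadjusted p of 0.05). Leaving out lean replicate 1 gave 14 and leaving out obese replicate 2 gave 34 in place of these 22.

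By list, beside 28.8% of all genes, the number called higher with NAM as deposited was 8 of 17 for coatomer and COPI genes, 9 of 21 for BAF subunits and 5 of 18 for the Arp2/3 complex and its activators. It was 10 of 19 for A-kinase and protein kinase A genes, 7 of 13 for tropomodulins and other pointed-end and tropomyosin genes, 5 of 17 for tubulins and their modifying enzymes, 2 of 10 for the insulin-like growth factor list and 1 of 16 for elastic fibre and microfibril genes. After rescaling the changes of the 131 genes ran from -0.75 to 0.49, and the median of the A-kinase list was 0.13 (0.40 as deposited).

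The median of the elastic fibre list was the farthest from 0 of the 8 lists after rescaling in both comparisons with obese hearts. It was 0.32 in obese against lean and -0.33 in NAM-treated against obese hearts, beside 0.00 and -0.01 over all genes. With NAM 14 of its 16 genes had a rescaled change below 0, beside 70 of the 131 listed genes. So did 7 of 7 fibroblast markers described below, and whether the 16 genes changed apart from them was not tested. None of the 16 was called after rescaling by limma in either comparison (7 higher and 8 lower, respectively, at an unadjusted p of 0.05). Mfap5, a microfibril glycoprotein, changed by -0.45 as deposited (adjusted p = 0.213) and by -0.75 after rescaling (adjusted p = 0.183), and elastin (Eln) by -0.47 (adjusted p = 0.0715) and -0.70 (adjusted p = 0.110). In NAM-treated against lean hearts the partner called lower on both scales was Vash2, a vasohibin that removes the terminal tyrosine of alpha-tubulin (-0.61, adjusted p = 0.0312; rescaled -0.63, adjusted p = 0.0269). Tpm1, the main tropomyosin of heart muscle, was called lower than lean after rescaling (-0.26, adjusted p = 0.0442) and not as deposited (-0.20, adjusted p = 0.215).

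**Figure D3:**
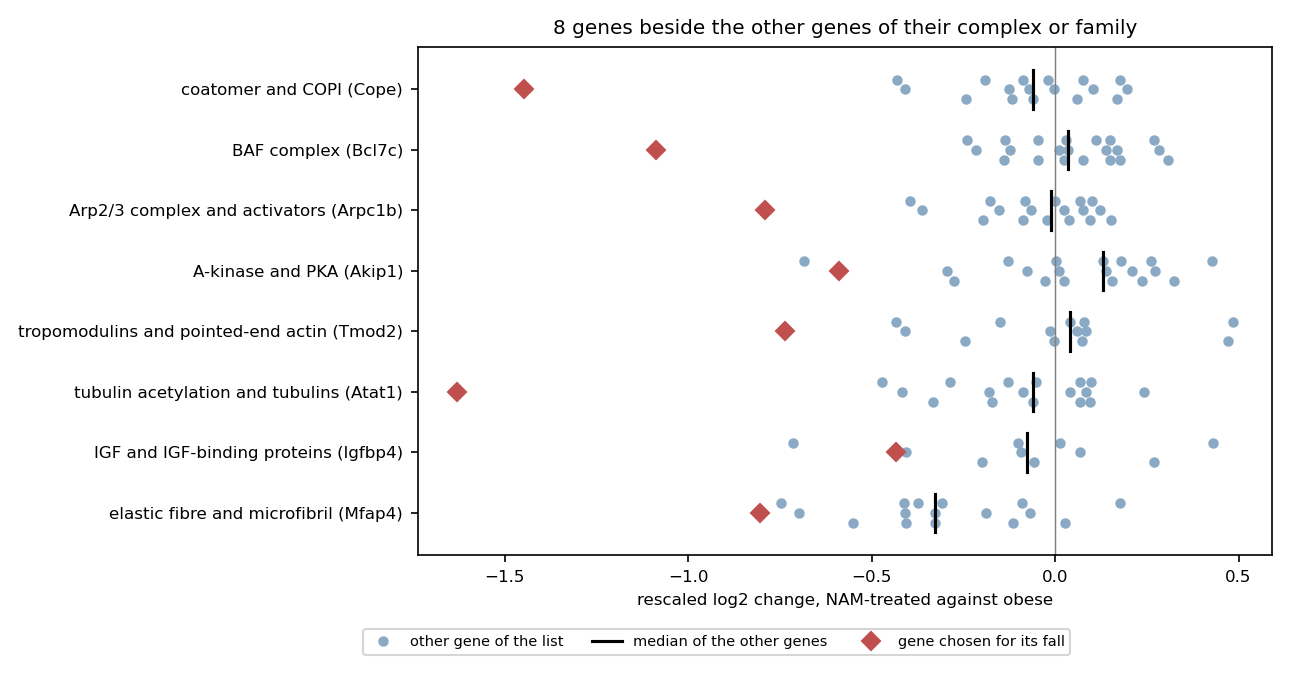
Rescaled log2 change in NAM-treated against obese hearts (horizontal axis) of the 8 genes (red diamonds, chosen for this change) and of the other kept genes of their list (blue points, black bar at the median), 1 row per list. The list medians lie between -0.08 and 0.13 except for elastic fibre and microfibril genes at -0.33.

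A ratio to a related gene within a sample does not depend on how that sample was scaled. The upper gene of each ratio was chosen for its fall from obese to NAM-treated hearts. The ratios and their tests against lean hearts are therefore not independent of that choice. How often other gene pairs show a given order of samples was not computed. Cope over the geometric mean of 6 other coatomer subunits was 2.26, 1.01, 0.824 and 1.08 in lean, 3.58, 3.001, 2.99 and 2.47 in obese and 0.984, 1.10, 1.10 and 0.878 in NAM-treated replicates. All obese samples exceeded all lean and all NAM-treated samples, with lean replicate 1 again the highest of its group. The ratio was 1.32 higher on the log2 scale in obese than in lean hearts (exact 2-sided permutation p = 0.0286, adjusted 0.0762).

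Bcl7c over its paralog Bcl7b averaged 0.618 ± 0.0873 for lean, 0.787 ± 0.0327 for obese and 0.299 ± 0.116 for NAM-treated hearts (SD, n = 4). The 3 groups did not overlap in this ratio, with obese highest and NAM-treated lowest. Arpc1b over Arpc1a, the alternative subunit, averaged 0.158 ± 0.0232 for lean, 0.172 ± 0.0288 for obese and 0.0924 ± 0.0156 for NAM-treated hearts (SD, n = 4), and Arpc1a was the more abundant form throughout, at 45.9 to 81.2 TPM. Tmod2 over Tmod1, the tropomodulin of heart muscle, averaged 0.0461, 0.0663 and 0.0299 in the same order of groups. Akip1 over Prkaca, the kinase subunit it binds, averaged 0.0751, 0.0981 and 0.0519. For these 4 ratios every NAM-treated sample lay below every lean sample. The 4 genes already had that order without the ratio, on both scales (3.81% of all genes as deposited and 6.35% after rescaling). Prkaca and Tmod1 themselves were called higher with NAM than in obese hearts as deposited (0.45, adjusted p = 0.00535, and 0.40, adjusted p = 0.00543) and were not called after rescaling (0.14 and 0.08). Both were also called lower in obese than in lean hearts as deposited (-0.45, adjusted p = 0.00738, and -0.43, adjusted p = 0.00549). After rescaling these differences were -0.20 and -0.17 and were not called.

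Of 16 ratio tests run together (8 ratios, obese against lean and NAM-treated against lean), 6 reached 0.0286, the smallest p that 4 against 4 samples allow. They were those of Cope and Bcl7c in obese against lean hearts and of Bcl7c, Arpc1b, Tmod2 and Akip1 in NAM-treated against lean hearts. After adjustment all 6 had 0.0762 and 0 of 16 passed 0.05. With so high a smallest p, any test could pass only if most of the 16 reached it. The lack of a pass therefore does not show that the ratios were alike. Mfap4 over Mfap5 averaged 2.66, 2.37 and 2.34 in lean, obese and NAM-treated hearts with overlapping groups. Igfbp4 over Igfbp5 averaged 0.385, 0.462 and 0.349, also overlapping. Atat1 over the deacetylase Hdac6 averaged 3.79 ± 1.56, 11.1 ± 7.99 and 2.74 ± 1.002 (SD, n = 4), and in obese replicates it ran from 3.69 to 21.2.

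**Figure D4:**
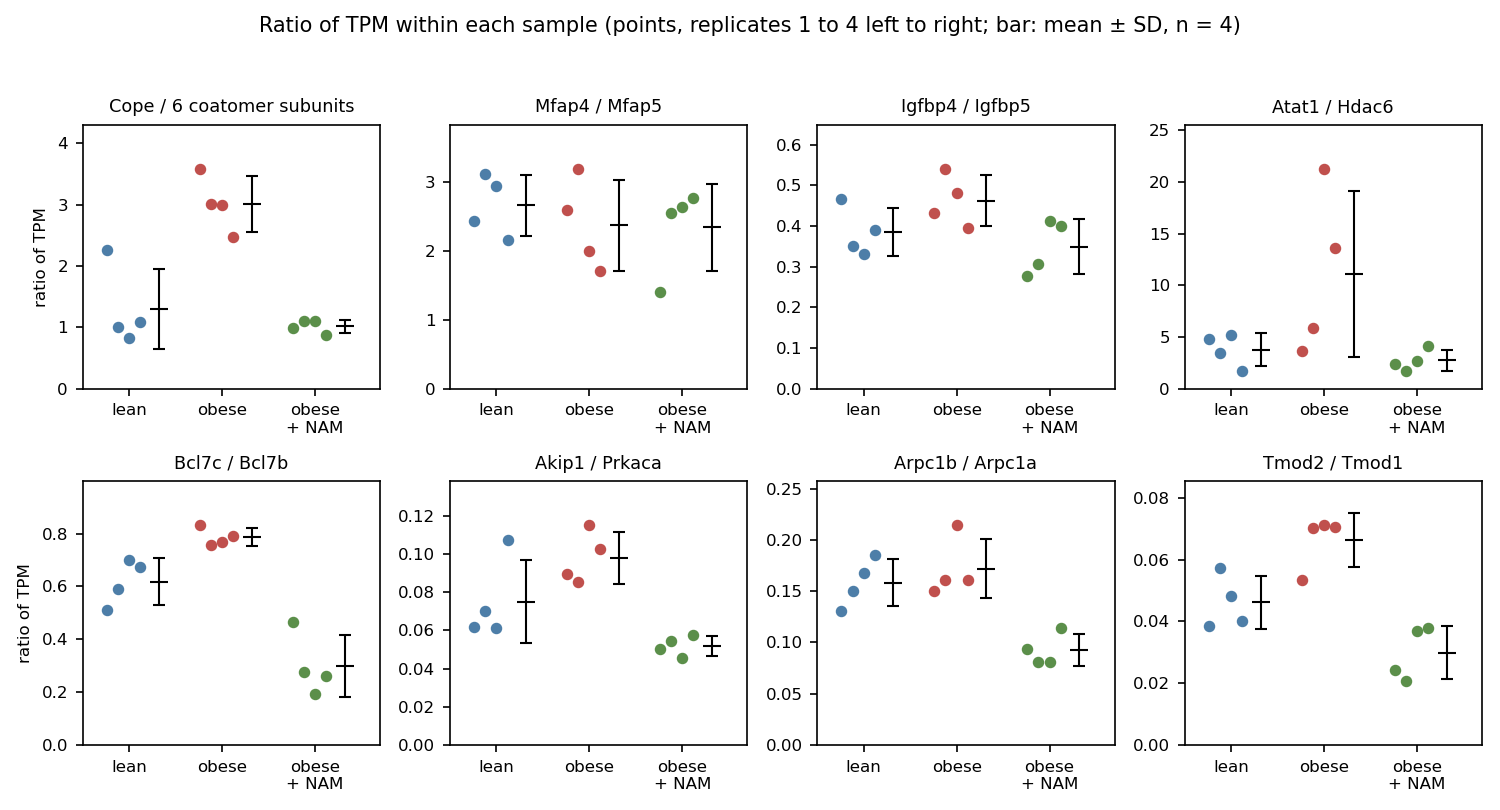
Ratio of each gene's TPM to that of a paralog or partner within each sample (vertical axes, from 0), for 4 lean, 4 obese and 4 NAM-treated samples (points, replicates 1 to 4 from left to right), with the mean and SD as a bar. The NAM-treated points lie under all lean points for Bcl7c, Akip1, Arpc1b and Tmod2, and the groups overlap for Mfap4 and Igfbp4.

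For each member the 2 other genes with the most similar rescaled log2 profile over the 12 samples were found, as a description: all points share libraries and their scaling, and a search over all kept genes yields high values by construction. The profile most like that of Atat1 was Aldh1a1, a retinaldehyde dehydrogenase (Pearson r = 0.964), then Bmper, a secreted BMP-binding protein (0.921). Mfap4 was most like C1r, a complement protease (0.958), and Mxra8, a cell-surface matrix-remodelling protein (0.939). Arpc1b was most like Rarres2, the precursor of chemerin (0.934), and Gsn, the actin-severing protein gelsolin (0.925). Bcl7c was most like Serf2 (0.934) and Aif1l (0.923), and Igfbp4 like Drap1 (0.922) and the chemokine-scavenging receptor Ackr2 (0.892). Tmod2 was most like Fam89b (0.896) and Zfp260 (0.884), Akip1 like the receptor kinase-like protein Ryk (0.889) and Anapc13 (0.877), and Cope like Ifitm3 (0.885) and Dbi (0.878). Zfp260 was listed at 0.791 to 1.98 TPM in lean and 0.825 to 1.76 TPM in obese samples, and at no more than 2e-05 TPM in every NAM-treated sample.

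Of the genes next to a member on its chromosome that could be tested, 0 were called lower with NAM, near the share over all genes. The nearest genes with a row in the table, taken on either side from the RefSeq order, gave 16 neighbours, 11 of which passed the filter. No neighbour of Igfbp4 or Mfap4 passed it, so nothing was tested beside these members. In NAM-treated against obese hearts 4 of the 11 were called higher and 0 lower as deposited, beside 28.8% and 0.466% of all genes. None was called after rescaling (2 lower and 0 higher at an unadjusted p of 0.05), with changes from -0.32 to 0.30. Over all genes 0.513% were called lower and 0.200% higher after rescaling. The lowest was Ddx49 beside Cope, an RNA helicase (-0.32, adjusted p = 0.300). Arpc1a sits beside Arpc1b and had a rescaled change of -0.00, and Tmod3 sits beside Tmod2 with -0.25 (adjusted p = 0.225).

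Markers of other cell types varied among the obese samples, and some of the 8 genes had the same order. The summed level of 6 macrophage markers was 17.3, 34.6, 66.0 and 48.9 TPM in obese replicates 1 to 4, 25.2 to 37.9 TPM in lean and 32.3 to 35.5 TPM in NAM-treated samples. The summed level of 7 fibroblast markers was 305, 414, 588 and 513 TPM in obese replicates, 363 to 384 TPM in lean and 313 to 394 TPM in NAM-treated samples. Atat1 and Arpc1b rank the 4 obese samples as both sums do, lowest in replicate 1 and highest in replicate 3, and Mfap4 is also lowest in replicate 1 and highest in replicate 3. The other members did not share that order. Cope and Bcl7c were highest in replicate 1 (35.4 and 3.87 TPM) and lowest in replicate 4 (26.8 and 2.19 TPM). Igfbp4 and Tmod2 were highest in replicate 4, and Akip1 was lowest in replicate 2 and highest in replicate 3. No marker of either list was at 0 throughout a group. Of the fibroblast sum, Dcn alone held 213 to 427 TPM in obese samples. Erythroid markers summed to 1441, 1438, 3387 and 2603 TPM in obese replicates 1 to 4. Adipocyte markers summed to 5.30, 4.11, 7.76 and 7.39 TPM there. Both of these sums were also highest in replicate 3, then replicate 4, and lowest in replicate 2. The share of all genes that rank the obese samples as Atat1 does was not computed.

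Of the macrophage markers 0 of 6 were called by limma in any comparison (at an unadjusted p of 0.05 after rescaling, 1 was higher in obese against lean and 1 lower in NAM-treated against obese hearts). Of 7 fibroblast markers Pi16, a marker of adventitial fibroblasts, was called higher in obese than in lean hearts as deposited (0.51, adjusted p = 0.0464) and not after rescaling (0.76, adjusted p = 0.0580), and lower with NAM on both scales (-1.15, adjusted p = 0.00292; rescaled -1.44, adjusted p = 0.0113). After rescaling 7 of 7 fibroblast markers had an unadjusted limma p under 0.05 for a higher level in obese hearts. With NAM 6 of 7 had one for a lower level. The share of all genes at that unadjusted threshold was not computed. Such counts, here and for the marker lists below, therefore cannot be set against all genes. The 3 erythroid markers summed to 633 to 1359 TPM in lean, 1438 to 3387 TPM in obese and 439 to 2005 TPM in NAM-treated samples, with none called by limma. At an unadjusted p of 0.05, 1 of the 3 was higher in obese against lean and 2 lower with NAM as deposited, and after rescaling 3 were higher and 3 lower, with medians of 1.31 and -1.49. The 4 atrial markers summed to 89.5 to 162 TPM in lean, to 282, 288, 115 and 582 TPM in obese and to 1098, 184, 164 and 220 TPM in NAM-treated replicates 1 to 4. They were highest in NAM-treated replicate 1, and among obese samples lowest in replicate 3, where Atat1, Arpc1b and Mfap4 were highest. Their median change was 1.40 in obese against lean hearts (1.64 after rescaling) and -0.33 with NAM against obese hearts (-0.61 after rescaling), with none called by limma. At an unadjusted p of 0.05, 1 of the 4 was higher in obese against lean hearts after rescaling and 0 as deposited, and 0 differed with NAM against obese hearts on either scale. Neuronal and Schwann cell markers, relevant to Tmod2, summed to 8.00 TPM in obese replicate 4 and to between 2.60 and 4.54 TPM in the other samples. The cardiomyocyte markers, which define the labelled tissue, summed to 4962 to 5550 TPM in obese, 7561 to 9084 TPM in lean and 6544 to 7364 TPM in NAM-treated samples. Rescaled, the sums were 5670 to 6475 in obese, 7260 to 8301 in lean and 6257 to 6583 in NAM-treated samples, so obese and NAM-treated ranges overlapped. As deposited 5 of 5 were called lower in obese against lean and 5 of 5 higher with NAM against obese hearts (16.5% and 28.8% of all genes). After rescaling it was 1 of 5 in each. The part of these marker levels in the changes of the 8 genes was not tested.

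**Figure D5:**
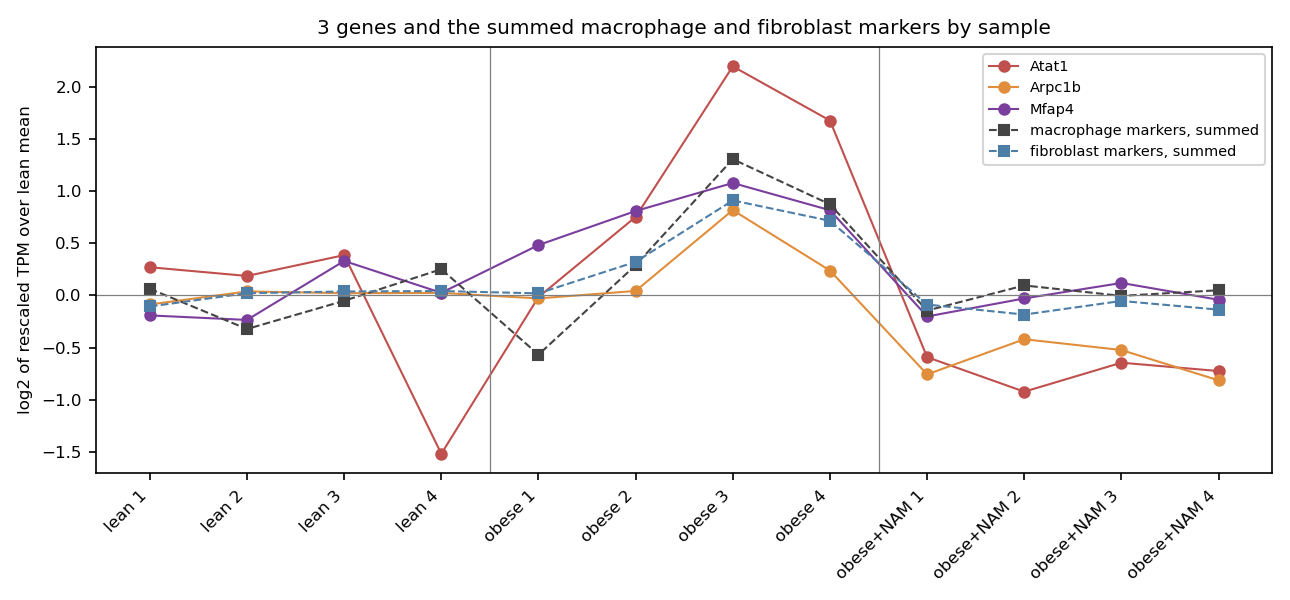
Rescaled TPM of Atat1, Arpc1b and Mfap4 (circles) and of the summed macrophage and fibroblast markers (squares, dashed) in each of the 12 samples, as log2 over the lean mean (vertical axis). In the obese samples replicate 1 is lowest and replicate 3 highest in all 5 curves. In the NAM-treated samples the marker sums are near the lean mean while Atat1 and Arpc1b are below it.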

How the data were processed

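Bulk RNA of cardiac muscle was sequenced from strand-specific libraries, per the labels' protocols. The authors deposited 1 table of TPM per gene for 12 samples (3 groups of 4), and each column is a share of a fixed total that keeps no depth. The submitters' processing notes name the Rnor_6.0 build and limma; aligner and quantifier: not given in the sources used here. For 498 genes the NAM-treated entries are text marks, not numbers, and these genes were left out, which leaves 17104, and no column belonged to other samples (0). If the NAM-treated columns were processed differently from the others, that cannot be told apart from NAM in any comparison with that group.

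From the deposited values, log2(TPM + 1) of the 10526 genes reaching 1 TPM in 4 or more samples was modelled in limma 3.58.1 (R 4.3.3, statmod 1.5.0; 3 group means over 12 samples, 9 residual degrees of freedom, robust eBayes with a mean trend). P-values are 2-sided and Benjamini-Hochberg adjusted over all kept genes, with a threshold of 0.05. Counts at an unadjusted p of 0.05 are given without a share over all genes, which was not computed. The members, and no other genes, go without a test in NAM-treated against obese hearts, since they were chosen on it. Ratios were compared with exact permutation tests over 70 assignments of 8 samples (scipy 1.17.1, Python 3.11.15). The fit was tested on simulated data. The same fit on rescaled values is given beside the deposited scale.

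Members and gene lists were chosen with earlier results of these data known. Named genes are the 8 members, the genes of the ratios, partner genes called on both scales, the 2 genes most like each member and its nearest neighbours; Tpm1, Tpm3, Eln and Pi16 were named after their values were seen. Where a symbol stood for several rows the highest mean was used. Promoters and gene order are RefSeq's for GRCr8, not the build of the table. Alternatives were a pseudocount of 0.1 or 5, keeping all genes or those averaging 5 TPM or more, median-of-ratios and quantile scaling, TPM without mitochondrially encoded genes, plain eBayes, fits to 8 samples, a replicate block, and each of the 12 samples left out. Rescaling together with the replicate block was added after the data had been seen.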

Additional observations from a re-analysis of the deposited data

Results flagged for a closer look

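For each of the 8 genes the highest and the lowest sample of every group were compared with the rest of the group by Dixon's ratio of gap to range, for TPM and for the ratios. Of 48 groups 4 stood out, where chance alone marks about 1 in 20. For Arpc1b in lean hearts, replicate 1 lay lowest at 8.64 TPM while the other 3 samples were within 8.86 to 8.90 TPM, a small gap in a tight group. The Arpc1b to Arpc1a ratio was highest in obese replicate 3, at 0.214, with the others at 0.1505 to 0.161. The Tmod2 to Tmod1 ratio was lowest in obese replicate 1, at 0.0533, with the others at 0.0702 to 0.0711. The Mfap4 to Mfap5 ratio was lowest in NAM-treated replicate 1, at 1.40, with the others at 2.55 to 2.77.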

How the results depend on the processing

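The 2 members called higher in obese than in lean hearts numbered 1 in the fit to the 8 samples of both groups (Cope was the call lost), 0 to 2 with 1 sample left out (0 without obese replicate 3, and 1 without lean replicates 1 or 2 or obese replicates 1 or 4) and 0 to 3 with 1 sample left out after rescaling. The 1 member called lower in NAM-treated than in lean hearts (Bcl7c) numbered 0 when genes averaging under 5 TPM were dropped, which removes that gene, 2 in the fit to 8 samples, and 0 to 2 with 1 sample left out on either scale. The median change of the members in NAM-treated against obese hearts, -0.51, was -0.65 with a pseudocount of 0.1, -0.36 with 5, -0.82 for the 4 members averaging 5 TPM or more, -0.80 with median-of-ratios scaling, -0.77 with quantile normalization and -0.80 without mitochondrially encoded genes. It ran from -0.61 to -0.47 with 1 sample left out, and from -0.89 to -0.73 after rescaling. Partner genes called in obese against lean hearts, 22 as deposited, were 0 with median-of-ratios scaling, quantile normalization or without mitochondrially encoded genes, 14 to 34 with 1 sample left out and 0 to 3 after rescaling. In NAM-treated against obese hearts, 47 became 1, 1 and 3 under the same scalings, 30 to 51 with 1 sample left out and 0 to 5 after rescaling. No ratio test passed 0.05 under any alternative run, and with 3 against 4 samples or the block none could. Differences that changed sign were uncalled: Akip1 in obese against lean hearts (0.17, 0.16 and 0.24 under the same scalings, -0.092 to 0.060 with 1 sample left out and 0.12 to 0.27 after rescaling), Bcl7c (-0.086 to 0.12 and, rescaled, 0.086 to 0.31) and Arpc1b (-0.15 to 0.12 and, rescaled, 0.076 to 0.33) there, and in NAM-treated against lean hearts Mfap4 (-0.020 with median-of-ratios scaling, -0.036 to 0.15 and, rescaled, -0.089 to 0.091), Cope (0.039 without mitochondrially encoded genes, -0.24 to 0.26 and, rescaled, -0.30 to 0.18) and Igfbp4 (0.042 to 0.14 and, rescaled, -0.0023 to 0.098). The log2 ratio of Cope changed sign against lean hearts (-0.42 to 0.069), and that of Mfap4 against obese (-0.17 to 0.20) and lean hearts (-0.32 to 0.011). For these the cause was not tested. Same-numbered samples correlated at -0.05 to 0.07 and differently numbered ones at -0.09 to 0.08, so these correlations gave no sign of pairing by replicate number. With the replicate block the members called were 2 and 1 as before, partner genes 18 in obese against lean and 40 in NAM-treated against obese hearts, and the median change of the members was -0.51. With the replicate block and rescaling together the members called were 2 and 1, partner genes 1 and 0, the median change -0.80, Akip1 0.17 and Mfap4 -0.020. The unknown depth limits the genes near 1 TPM, Bcl7c and Tmod2, most directly.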
